A study of Mus musculus with 12 samples.

Results

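Pseudogene loci are the rows that the authors' deposited tables type as pseudogene, and they were taken from each table by that type alone. They numbered 434 of 16687 loci in the siGSK3b table, 447 of 17394 in the L803mts table and 483 of 17864 in the ketamine table. Across the tables they carried 593 names, of which 335 stood in all 3. Hippocampal RNA of C57BL/6 mice was enriched for poly(A) tails and sequenced, in 4 groups of 3 libraries. Control mice were given vehicle through the nose, 5 µL a side on alternate days over 3 days. The siGSK3b group received 10 µg of an siRNA directed at the kinase GSK3b, and the L803mts group 60 µg of a GSK3 inhibitor, on that schedule. The ketamine group received an intraperitoneal dose of 10 mg/kg of this NMDA receptor antagonist and was taken after 24 h. The labels give 1 control group, so drug and route cannot be told apart for ketamine, and they do not say that libraries came from separate mice, so p-values measure the spread between these libraries, which may be technical.

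Pseudogenes are genomic copies of genes that have lost the ability to encode the original protein. Processed pseudogenes arise when a messenger RNA is copied into DNA and inserted elsewhere, so they lack introns and usually their own promoter, and highly expressed housekeeping genes such as those of ribosomal proteins leave many of them. Because such a copy resembles the mature messenger RNA of the gene it came from, short reads from the gene and from the copy can be hard to place, and the more recent the copy, the harder. Older copies carry more differences, which can mark a read as coming from one of them. Some pseudogenes are themselves transcribed.

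The sequences below show how far a locus can be told from its closest protein-coding gene, and were chosen because these loci recur in the results. Each pair is a stretch of 60 aligned bases inside the coding region of the protein-coding gene, 5′ to 3′, from GENCODE vM21 transcripts on build GRCm38. Capitals mark the bases that differ between the 2 members of a pair. The stretches were picked so that their share of differing bases lies nearest to that of the whole alignment, and they were not placed within the limits of the deposited loci. Gm13437 (chr2:37082339-37082398, minus strand) is a copy of Hspa8, the constitutive 70-kDa heat shock protein chaperone, at 86.5% identity over 2015 aligned bases. Gm13812 (chr2:100461406-100461465, minus strand) is a copy of Pkm, the glycolytic enzyme pyruvate kinase, at 91.2% over 1371 bases. Gm14480 (chrX:10697191-10697250, minus strand) is a copy of Calm2, a calmodulin gene, at 90.8% over 447 bases. Gm6368 (chrX:141980355-141980414, plus strand) is a copy of Hsp90ab1, a constitutive 90-kDa chaperone, at 90.8% over 2174 bases. Rpl19-ps11 (chr8:19492936-19492995, plus strand) is a copy of Rpl19, a protein of the large ribosomal subunit, at 99.8% over 591 bases, and shows no differing base in its stretch.
Gm13437: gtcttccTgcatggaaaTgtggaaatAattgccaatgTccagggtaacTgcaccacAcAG
Hspa8: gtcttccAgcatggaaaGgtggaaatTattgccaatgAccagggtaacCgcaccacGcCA
Gm13812: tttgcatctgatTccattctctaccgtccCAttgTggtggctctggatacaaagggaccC
Pkm: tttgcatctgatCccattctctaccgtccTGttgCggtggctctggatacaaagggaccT
Gm14480: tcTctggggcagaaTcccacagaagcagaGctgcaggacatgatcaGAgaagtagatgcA
Calm2: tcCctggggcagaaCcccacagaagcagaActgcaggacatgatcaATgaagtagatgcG
Gm6368: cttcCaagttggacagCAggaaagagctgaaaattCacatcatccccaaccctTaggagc
Hsp90ab1: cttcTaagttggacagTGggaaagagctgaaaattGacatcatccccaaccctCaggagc
Rpl19-ps11: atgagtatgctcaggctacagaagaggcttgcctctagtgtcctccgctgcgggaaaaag
Rpl19: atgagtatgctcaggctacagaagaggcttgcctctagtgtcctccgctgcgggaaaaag

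A newer annotation gave most of the loci the same type. In GENCODE vM21, 346 of the 431 tested loci of the siGSK3b table were processed pseudogenes, as were 356 of 446 in the L803mts table and 393 of 479 in the ketamine table. A tested locus is one with a deposited p-value below 1. There, 16, 19 and 17 tested loci of the respective tables had a protein-coding entry. Among these were Sowahc, Kctd12, Oaz2, Fam181b and Gm4707, so for them the label pseudogene goes against the newer annotation. A closest protein-coding transcript was found for 577 name entries, where a row with 2 names counts for both, and these transcripts belonged to 475 genes. The median identity was 96.8% and the quartiles were 92.3% and 99.1%. Hnrnpa1, which encodes a nuclear RNA-binding protein, was the closest gene of 6 entries. Npm1, a nucleolar chaperone gene, and Cdv3 were each closest to 5, and Gapdh, a glycolytic enzyme gene, to 4. Cytosolic ribosomal protein genes together were the closest genes of 79 entries.

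Markers of the hippocampus were present in every library. Pseudogene loci had median values between 10.2 and 13.8 FPKM (fragments scaled by transcript length and by the fragments of the library) over the libraries of all tables. The markers of hippocampal excitatory neurons, of which 14, 13 and 14 were measured in the respective tables, averaged 4.85 to 5.69 on the log2(FPKM + 1) scale, and none was at 0. The 19 measured choroid plexus markers averaged 4.56, 2.17 and 1.47 in control replicates 1 to 3 of the siGSK3b table, so control replicate 1 was far above the other controls. They averaged 4.38 to 4.85 with siGSK3b, 4.01 to 4.56 with L803mts, and 4.47, 4.57 and 2.60 with ketamine, and 14, 10 and 1 of the 19 were higher at an unadjusted limma p under 0.05. At most 1 of these markers was at 0 in any library. The 6 oligodendrocyte markers averaged 6.41 in each siGSK3b library against 6.63 to 6.67 in control, and 4.24 to 4.42 with ketamine against 4.50 to 4.63 in its controls, with 3 of 6 lower in both tables at an unadjusted limma p under 0.05. Of 15 meningeal and vascular fibroblast markers 5 were higher with L803mts, where they averaged 2.68 to 2.80 against 2.08 to 2.32, and 3 of 13 excitatory neuron markers were lower. In the other lists at most 2 markers passed in either direction. The part of these cell types in the pseudogene values was not tested. In bulk tissue, fewer cells of a type and less RNA per cell cannot be told apart. Gsk3b mRNA, the target of the siRNA, was at 18.4, 19.3 and 18.9 FPKM with siGSK3b against 18.0, 17.3 and 17.8 FPKM in control, with no treated library below a control (limma, adjusted p = 0.938). Read totals cannot be recovered from FPKM, so depth is unknown.

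Levels of the loci covered a wide range. The median control mean over tested loci was 13.5 FPKM in the siGSK3b table, 12.8 in the L803mts table and 11.1 in the ketamine table, against 10.5, 10.0 and 9.24 over all tested loci. Pseudogene rows were also shorter, with median spans of 1166, 1211 and 1077 bases against 12122, 13450 and 12136 over all tested loci. FPKM is scaled by length, so these medians do not show which loci give more RNA. The highest was Gm14202, at 4897, 6396 and 6444 FPKM in control replicates 1 to 3 of the siGSK3b table. Its row spans 113825 bases of chromosome 2 and also covers the protein-coding gene Ralgapb, and Dut, a nucleotide-metabolism gene, is its closest transcript at only 76.9%. Gm12834, at 3059, 3830 and 2761 FPKM, and Gm13437, at 2130, 4048 and 1683 FPKM, followed in that table, from rows of 107 and 110 bases. Gm1821, a copy of the polyubiquitin gene Ubb at 97.7% identity, stood at 1629, 1751 and 2379 FPKM in a row of 136 bases. Gm15974, a copy of the peroxiredoxin gene Prdx1, Gm15198, a copy of the ribosomal protein gene Rplp2, Gm12346, a copy of the chaperone gene Hsp90aa1, and Gm14689 had control means of 1066, 721, 608 and 621 FPKM. Gm14539, which matches the ATP synthase subunit gene Usmg5 at 100% identity, averaged 499 FPKM. Of loci with a ribosomal protein name, Rpl14-ps1 was highest, at 340, 316 and 442 FPKM, followed by Rpl38-ps2 and Rpl3-ps1 with means of 290 and 266 FPKM. Some copies were steady between libraries: Tpt1-ps3, a copy of the translationally controlled tumour protein gene, was at 231, 233 and 240 FPKM, and Vdac3-ps1, a copy of a mitochondrial channel gene, at 133, 135 and 134 FPKM. The lowest control mean of a listed row was 0.282 FPKM in the siGSK3b table.

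The same 3 control libraries did not always give the same value in the 3 tables, each of which has its own locus limits and normalisation. Of 326 names found once in every table, 60 had the same limits in all of them and 276 had control means within 1.5 times of each other. Gm12834 had a control mean of 3217 FPKM over a row of 107 bases, but 12 and 9.40 FPKM in the L803mts and ketamine tables, over rows of 227 and 245 bases that do not overlap the first. Gm13437 stood at 2620, 2671 and 691 FPKM over 110, 110 and 126 bases. Akt2-ps, named after a kinase gene, had the same limits in every table and control means of 7.88, 7.86 and 12.9 FPKM. In 2210015D19Rik, which GENCODE lists as Ube2d-ps and which matches Urgcp over 113 bases on the opposite strand, 1 library set the value: control replicate 3 was at 17.3 FPKM in the siGSK3b table, 15.2 in the L803mts table and 823 in the ketamine table, over limits that differ by 1 base. Rows overlapped another locus in 77, 77 and 82 cases, and with 46, 34 and 35 of these the other was protein-coding, so their reads may be shared. All comparisons below therefore stay within a table.

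With siGSK3b the shares of pseudogene loci that were higher or lower lay near the background of the table. None passed limma at an adjusted p of 0.05, where 0.00612% of all tested loci did. At an unadjusted limma p under 0.05, 11 loci were higher and 9 lower among 431, against background shares of 2.99% and 2.84% (5.83% in either direction). Without control replicate 1 these counts were 14 and 21, and the shares of all tested loci without it were not computed. By the authors' Cuffdiff test 1 locus was called higher and 1 lower, where 0.281% and 0.226% of all loci were (0.508% in either direction). The groups did not overlap at 25 loci that were higher and 14 that were lower, where the background was 5.72% and 4.84%. The median difference was 0.02 on the log2(FPKM + 1) scale, as against 0.01 over all tested loci.

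The 2 loci called by the authors in that table were Sowahc and Rpl19-ps11. Sowahc, an ankyrin-repeat gene with a protein-coding entry in GENCODE, was at 21.2, 9.49 and 8.61 FPKM in control and 19.1, 19.4 and 17.5 FPKM with siGSK3b. Control replicate 1 was as high as the treated libraries, so the groups overlapped. Its log2 fold change in the authors' deposited table was 0.51 with an FDR of 0.0224. Leaving out control replicate 1 removes the only control at the treated level, so the groups are then apart by construction. Without it the difference was 0.97 on the log2(FPKM + 1) scale and the locus passed limma (adjusted p = 0.0481). That library also had the highest choroid plexus markers of the controls, and a link between them and Sowahc was not tested. Rpl19-ps11 was at 134, 213 and 233 FPKM in control and 150, 147 and 129 FPKM with siGSK3b, and control replicate 1 lay inside the treated range. Its log2 fold change in the authors' deposited table was -0.44 with an FDR of 0.0493, while limma gave an adjusted p of 0.869.

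Among loci whose groups did not overlap, the widest differences above control with siGSK3b reached 0.64 on the log2 scale. Gm12469, a copy of the ribosomal protein gene Rpl17, was at 177, 242 and 314 FPKM in control and 364, 394 and 358 FPKM with siGSK3b (0.64 ± 0.19 SE on the log2 scale; limma, adjusted p = 0.785). Zxda, closest to the zinc finger gene Zxdb, and Cd63-ps, a copy of the tetraspanin gene Cd63 in a row that overlaps Hsd17b4, had differences of 0.62 and 0.61. Gm8410, Gm14794, a copy of the ATP synthase gene Atp5c1, and Gm14017, a copy of the mitochondrial ribosomal protein gene Mrpl51, had 0.45, 0.42 and 0.40. Cd63-ps was at 30.3, 21.4 and 20.0 FPKM in control and 32.9, 40.9 and 35.8 FPKM with siGSK3b. The values were therefore high in every treated library, with control replicate 1 closest to them. On the lower side the widest was Gm8666, a copy of Hmgn1, a nucleosome-binding protein gene, at 12.2, 14.1 and 12.8 FPKM in control and 10.1, 9.99 and 8.33 FPKM with siGSK3b (-0.42 ± 0.12). Copies of Rpl6 (Gm6136), Stmn1, a microtubule regulator gene (Gm11223), and Ckb, brain creatine kinase (Gm12892), each had a difference of -0.32. Gm9144, a copy of the transcription factor gene Nfyc, and Gm5424, a copy of Ass1, a urea cycle gene, had -0.32 and -0.31. None of these 12 loci passed limma or the authors' test.

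With L803mts the counts depended on single libraries. None passed limma at an adjusted p of 0.05, and the background of this table was 0.0%. At an unadjusted limma p under 0.05, 16 loci were higher and 4 lower among 446, against 3.61% and 2.57% of all loci (6.18% in either direction). Without L803mts replicate 2 the counts were 21 and 32, and without L803mts replicate 3 they were 10 and 3. The shares of all tested loci without these libraries were not computed, so whether all loci moved likewise is unknown. The authors called 3 loci higher and 0 lower, where the background was 0.574% and 0.0761% (0.65% in either direction). At 25 loci all L803mts libraries were above all controls and at 22 all were below, with background shares of 5.86% and 6.67%. The median difference was -0.07 on the log2 scale, against -0.02 over all tested loci. L803mts replicate 3 had the lowest pseudogene median of the table, 11 FPKM against 12 to 13.7 in the other libraries.

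The 3 loci called by the authors with L803mts were copies of the chaperone gene Hsp90ab1, of Ubb and of the RNA-binding protein gene Hnrnpc. Gm6368, the copy of Hsp90ab1 shown above, was at 190, 187 and 201 FPKM in control and 227, 263 and 361 FPKM with L803mts. Every treated library was above every control. The difference was 0.53 ± 0.16 on the log2 scale (limma, adjusted p = 0.757), and the authors' deposited table gave a log2 fold change of 0.56 with an FDR of 0.0461. Hsp90ab1 itself was at 350 ± 30.3 FPKM in control and 533 ± 215 FPKM with L803mts (SD, n = 3), a difference of 0.54 ± 0.24 on the log2 scale. Gm1821 was at 2278, 2457 and 3405 FPKM in control and 4588, 3094 and 5048 FPKM with L803mts, with replicate 2 inside the control range. Its log2 fold change in the authors' deposited table was 0.64 with an FDR of 0.0461. Gm12696, a copy of Hnrnpc, was at 5.18, 3.95 and 4.39 FPKM in control and 4.82, 6.21 and 9.18 FPKM with L803mts, and replicate 1 lay inside the control range. Its log2 fold change in the authors' deposited table was 0.58 with an FDR of 0.0403.

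Among loci whose groups did not overlap, the 3 widest differences above control with L803mts were at loci that share a closest transcript. Gm9431, Gm17190 and Gm13369 all matched the predicted coding gene Gm6793, at 95.9%, 92.4% and 91.3% identity, so reads may be shared among them and they may not be separate observations. Gm17190 has a protein-coding entry in GENCODE, and the row of Gm13369 overlaps Pnpla7. Gm9431 was at 1.95, 1.94 and 2.46 FPKM in control and 4.37, 3.94 and 6.76 FPKM with L803mts (0.93 ± 0.21 SE; limma, adjusted p = 0.757). Gm17190 had a difference of 0.77 and Gm13369 of 0.79. At all 3, each treated library was above each control library. Gm11914, a copy of the nucleosome-binding gene Hmgn5, and Gm15784, a copy of Nacc1 beside an antisense row, had 0.74 and 0.62. Among the lower loci Gm13991, a copy of the endosomal GTPase gene Rab5b that also has an antisense row, was at 3.99, 2.68 and 3.04 FPKM in control and 0.948, 2.51 and 1.97 FPKM with L803mts (-0.62 ± 0.25). Fam181b, with a protein-coding entry in GENCODE, was at 12.4, 11.6 and 12.7 FPKM in control and 10.8, 9.50 and 6.63 FPKM with L803mts (-0.43 ± 0.18). Gm16355, Gm10297, Gm14822 and Gm5406, the last a copy of the proteasome gene Psma3, had differences from -0.40 to -0.32. None passed limma or the authors' test.

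With ketamine, more pseudogene loci were higher than the background of the table gave. None passed limma at an adjusted p of 0.05, where 0.0114% of all loci did. At an unadjusted limma p under 0.05, however, 67 of 479 loci (14%) were higher, against 2.98% of all tested loci, and 12 were lower (2.51%), against 3.16% (6.13% in either direction). The count includes loci whose name no other table lists. Among names in all tables it was 32 of 337 (9.50%), against 2.2% of all such loci. A shared name does not mean shared limits, which only 60 of 326 names found once in every table had. The authors called 12 loci higher, 2 of them with identical values, and 2 lower, where the background was 0.308% and 0.131% (0.439% in either direction). At 81 loci every ketamine library was above every control, and at 21 every one was below, with backgrounds of 5.28% and 6.19%. The median difference was 0.05 on the log2 scale, against -0.01 over all tested loci. Leaving out each library in turn gave 57 to 76 higher loci and 6 to 19 lower ones. Without control replicate 1, the control with the highest choroid plexus markers, 67 were higher. The shares of all tested loci with a library left out were not computed. No test compared ketamine with the other treatments, since the 3 tables share their control libraries and were normalised apart.

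**Figure D1:**
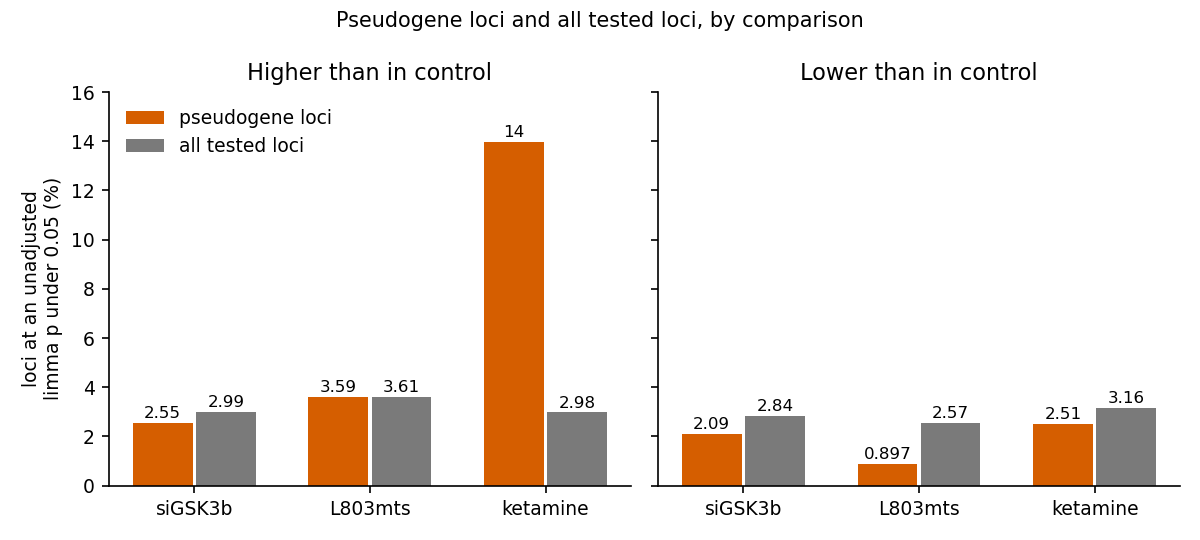
Percent of loci at an unadjusted limma p under 0.05 (vertical axis), higher than control (left) and lower (right), for pseudogene loci (orange) and all tested loci (grey) in each comparison. Higher pseudogene loci made up 14% with ketamine against 2.98% of all loci, while the other pairs of bars lie within 2 percentage points of each other.

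The authors called 12 loci higher with ketamine, among them copies of Hspa8, Pkm, Gapdh and Calm2. Gm13437 (NCBIM37, chromosome 2, 36929736 to 36929861) was at 548, 1095 and 430 FPKM in control and 1887, 1354 and 1384 FPKM with ketamine. All ketamine libraries were above all controls, of which replicate 2 was the highest. The difference was 1.26 ± 0.32 on the log2 scale (limma, adjusted p = 0.638), and the authors' deposited table gave a log2 fold change of 1.16 with an FDR of 0.0157. Hspa8 was at 388 ± 46.9 FPKM in control and 351 ± 71.1 FPKM with ketamine (SD, n = 3), a difference of -0.16 ± 0.15 on the log2 scale. The groups were thus apart at the copy, while the difference at the gene was of the size of its error. Over the shorter rows of the other tables Gm13437 was at 3089, 1281 and 3838 FPKM with siGSK3b and 1384, 3923 and 1053 FPKM with L803mts, and overlapped the control in both.

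Gm13812 and Gm13810, copies of Pkm on chromosome 2, had identical values and are 1 observation: their GENCODE transcripts of 1347 bases differ at 0 positions. Both were at 17.9, 29.8 and 14 FPKM in control and 34.1, 45.6 and 45.6 FPKM with ketamine (1.04 ± 0.25; limma, adjusted p = 0.601). In the other tables the rows of these names covered a neighbouring stretch outside these limits, where Gm13812 had differences of 0.23 with siGSK3b and 0.18 with L803mts. Gm11996, a copy of Gapdh at 87.9% identity, was at 57.5, 73.1 and 42.8 FPKM in control and 79.4, 92.3 and 84.8 FPKM with ketamine. In both the groups were apart, with control replicate 2 highest and control replicate 3 lowest among the controls. Gm8659, closest to the aldolase gene Aldoart1, was at 7.27, 10.5 and 3.69 FPKM in control and 8.72, 19.4 and 17.3 FPKM with ketamine, where replicate 1 lay inside the control range.

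Gm14480 had the tightest groups among these loci, at 21.2, 21.9 and 19.1 FPKM in control and 37.6, 30.9 and 29.7 FPKM with ketamine (0.63 ± 0.11; limma, adjusted p = 0.488). The gene it resembles, Calm2, was at 6576 ± 634 FPKM in control, so the copy's level was 0.315% of it. Gm13082, a copy of Rab6a, a GTPase gene of Golgi traffic, was at 36.8, 36.4 and 28.7 FPKM in control and 53.6, 46.8 and 55.7 FPKM with ketamine (0.61 ± 0.12). Rab6a itself had a difference of -0.03 ± 0.09 on the log2 scale. Gm14541, a copy of the ribosomal protein gene Rpl39, was at 24.5, 32.8 and 18.6 FPKM in control and 41.7, 41.6 and 41.0 FPKM with ketamine (0.73 ± 0.18). Here the gene also stood above control, at 57.3 ± 5.48 FPKM in control and 80.5 ± 3.59 FPKM with ketamine (SD, n = 3), a difference of 0.49 ± 0.09 (limma, adjusted p = 0.488).

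The remaining calls of the authors included a mitochondrial copy and very low loci. Gm11410, closest to mt-Cytb, the mitochondrial cytochrome b gene, was at 84.5, 147 and 39.5 FPKM in control and 192, 259 and 309 FPKM with ketamine (1.64 ± 0.42; limma, adjusted p = 0.638). Gm16247, with no match in the newer annotation, was at 36.4, 36.6 and 23.7 FPKM in control and 49.5, 48.8 and 47.3 FPKM with ketamine. Gm6755, a copy of the autophagy gene Nrbf2, was at 0.464, 1.66 and 0.469 FPKM in control and 1.82, 3.03 and 2.29 FPKM with ketamine. Gm6740, at another site of chromosome 14, had much the same values, 0.537, 1.54 and 0.434 against 1.69, 2.88 and 2.09 FPKM. Gm6755 and Gm6740 may therefore not be separate observations. Like them, Gm11410 and Gm16247 were higher in every ketamine library than in any control.

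The 2 loci called lower by the authors rested on few libraries. Rpl19-ps11 was at 134, 211 and 234 FPKM in control and 156, 117 and 151 FPKM with ketamine, and control replicate 1 lay among the treated libraries. Its log2 fold change in the authors' deposited table was -0.45 with an FDR of 0.0361. For 2210015D19Rik the call came from control replicate 3, at 823 FPKM, beside 11.9 and 16.5 FPKM in the other controls and 20.7, 14 and 17.7 FPKM with ketamine. Without that library the difference changed from -1.65 to 0.28 on the log2 scale.

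**Figure D2:**
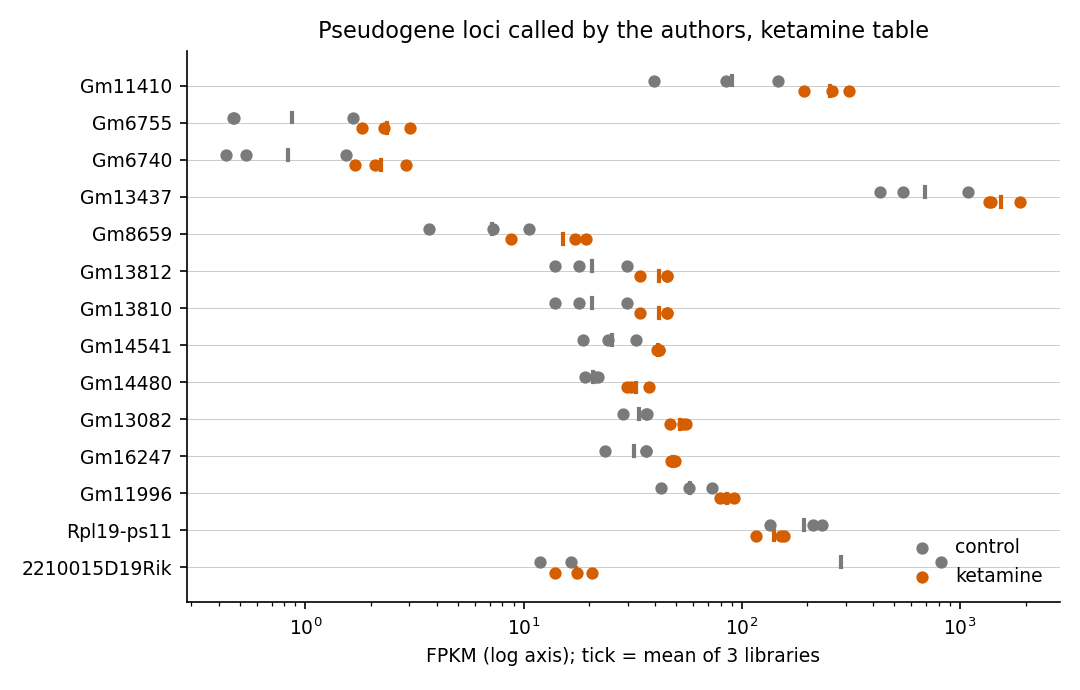
FPKM on a log axis of the 14 pseudogene loci with a deposited FDR of at most 0.05 in the ketamine table, with 1 point per library and a tick at the mean of 3. At 11 of the 12 loci called higher the ketamine points lie above all control points, the exception being Gm8659, and the lone control point at 823 FPKM sets the mean of 2210015D19Rik. Gm13812 and Gm13810 have identical values and are 1 observation.

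Apart from Gm11410, the 6 widest differences above control with ketamine, among loci whose groups did not overlap, were at loci that the authors did not call. Gm11516, a copy of the chaperonin gene Cct3, was at 5.50, 4.61 and 0 FPKM in control and 17.5, 15.7 and 14.2 FPKM with ketamine (2.34 ± 0.64; limma, adjusted p = 0.684). Gm12732, a copy of the ribosomal protein gene Rpl23, was at 4.55, 10.3 and 0 FPKM in control and 21.8, 20.2 and 11.4 FPKM with ketamine (2.19 ± 0.79). Gm15223, a copy of the elongation factor gene Tcea1, was at 2.51, 3.94 and 0 FPKM in control and 8.25, 8.51 and 6.12 FPKM with ketamine (1.72 ± 0.53). All 3 were listed at 0 in control replicate 3, and across all pseudogene rows of the table that library had 8 zeros against 5, 1, 1, 1 and 1 in the others. Gm13036, 1 of 3 copies of Cdv3 among the 67 higher loci, was at 35.4, 85.3 and 13.1 FPKM in control and 135, 112 and 108 FPKM with ketamine (1.75 ± 0.56). Gm11855, a copy of the mismatch repair gene Msh6, was at 3.00, 4.43 and 11.8 FPKM in control and 15.7, 17.0 and 18.1 FPKM with ketamine (1.45 ± 0.38). Among the highest loci of the table, Gm17181, a row of 120 bases that matches the signalling adaptor gene Ywhaz at 100% identity, was at 515, 443 and 475 FPKM in control and 807, 829 and 621 FPKM with ketamine (0.65 ± 0.13; limma, adjusted p = 0.519).

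Fewer loci were lower with ketamine. Gm4707, with a protein-coding entry in GENCODE, was at 4494, 3779 and 8076 FPKM in control and 3212, 2279 and 2028 FPKM with ketamine (-1.07 ± 0.30; limma, adjusted p = 0.689). Cbfa2t2-ps1, a copy of a transcriptional corepressor gene, was at 3.89, 5.41 and 5.22 FPKM in control and 2.98, 2.97 and 2.58 FPKM with ketamine (-0.60 ± 0.16). Gm12318, a copy of Rpl37a in a row of 114 bases, was at 127, 65.9 and 208 FPKM in control and 55.9, 58.3 and 0 FPKM with ketamine. Gm4149, another copy of Rpl37a at 99.6% identity, was at 146, 142 and 218 FPKM in control and 129, 110 and 134 FPKM with ketamine (-0.41 ± 0.17). 3000002C10Rik and Gm14018, a copy of Wdr76, each had a difference of -0.48 between 0.825 and 3.01 FPKM. The groups did not overlap at any of the 6, and neither limma nor the authors' test called them.

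The loci that were higher with ketamine were mostly those that differ most from a coding gene. Loci with a pseudogene type in GENCODE were put in 4 identity classes, with limits chosen after the values were seen and with no test of the pattern. Under 90% identity 15 of 55 loci (27.3%) were higher at an unadjusted limma p under 0.05. Between 90% and 95% the count was 24 of 82 (29.3%), and between 95% and 98% it was 16 of 102 (15.7%). At 98% or more it was 10 of 195 (5.13%), against the background of 2.98%. The median differences of the 4 classes were 0.17, 0.25, 0.13 and -0.01 on the log2 scale. In the siGSK3b table the same classes held 2 of 38, 2 of 64, 2 of 99 and 4 of 191 higher loci. These are 5.26%, 3.13%, 2.02% and 2.09%, against a background of 2.99%. In the L803mts table they held 1 of 44, 3 of 68, 4 of 101 and 7 of 184. With alignments on the same strand over at least 50% of the transcript, a restriction chosen after the values were seen, the ketamine counts were 15 of 49, 24 of 75, 16 of 102 and 10 of 194. Identity went with level, since the median control mean in the ketamine table was 6.76, 5.33, 8.48 and 21.7 FPKM from the lowest class to the highest.

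**Figure D3:**
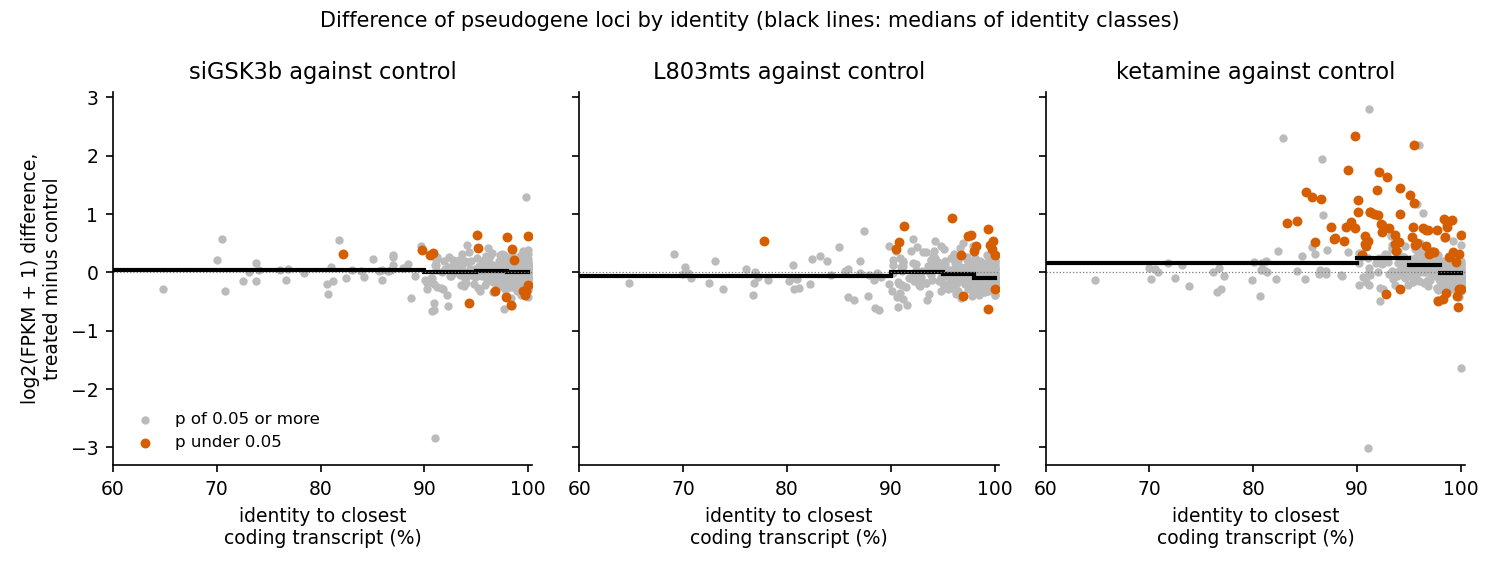
Difference of each tested pseudogene locus on the log2(FPKM + 1) scale (treated minus control) against its identity to the closest protein-coding transcript in percent, in the 3 tables. Orange points have an unadjusted limma p under 0.05 and black lines are the medians of the 4 identity classes, which in the ketamine panel stand at 0.17, 0.25, 0.13 and -0.01.

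The closest coding genes had median differences near 0 in every class. Where the closest gene had a tested row of its own in the ketamine table, loci of 90% to 95% identity had a median of 0.29 over 57 pairs, and their 56 genes one of -0.02. From 95% to 98% the medians were 0.11 at 82 loci and -0.03 at the genes. Under 90% the 41 loci had a median of 0.17, and at 98% or more the genes had one of -0.02, while the genes of the first class and the loci of the second lay within 0.01 of 0. For 49 of the 67 higher loci the closest gene had such a row, 42 genes in all. The median difference was 0.69 at these loci, a value fixed by choosing them for being higher, and -0.02 at the genes. Of these 42 genes 5 were higher and 1 was lower at an unadjusted limma p under 0.05. The background was 2.98% higher and 3.16% lower, so the share of higher genes was above it. The 49 loci had a median control level of 7.25% of the gene's FPKM. The 67 loci lay on 15 chromosomes and had 57 different closest genes, with differences from 0.17 to 2.34 and a median of 0.77. Their control means ran from 0.535 to 691 FPKM with a median of 6.78.

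The control libraries also differed from each other at these loci. Control replicate 3 was the lowest control at 44 of the 67 loci and control replicate 2 the highest at 39. Over all 479 tested loci the counts were 171 and 149. Without control replicate 3, 58 loci were higher, and the share of all tested loci without it was not computed. Median deviations of each library from the locus mean varied in order between identity classes. In the ketamine table loci of 90% to 95% identity deviated by -0.12, 0.01 and -0.17 in control replicates 1 to 3 and by 0.16, 0.17 and 0.07 with ketamine. Loci of 95% to 98% deviated by -0.04, -0.09 and -0.06 in control, with replicate 2 lowest, and by 0.10, 0.03 and 0.07 with ketamine, and all pseudogene loci by -0.03 in each control. Loci of 98% or more deviated by 0.00, -0.03 and 0.05 in control and by 0.03, -0.04 and 0.02 with ketamine. In the siGSK3b table, loci under 90% identity deviated by -0.01, 0.11 and -0.13 in control and by 0.06, -0.12 and 0.11 with siGSK3b. The 3 ketamine libraries lay above 0 in each of the 3 lower classes, and the siGSK3b libraries lay on both sides of 0 in each of them. The choroid plexus markers averaged 4.76, 2.16 and 1.44 in controls and 4.47, 4.57 and 2.60 with ketamine. Among the controls, replicate 1 was highest for these markers and replicate 3 lowest. What sets the level of divergent copies in a library was not tested.

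**Figure D4:**
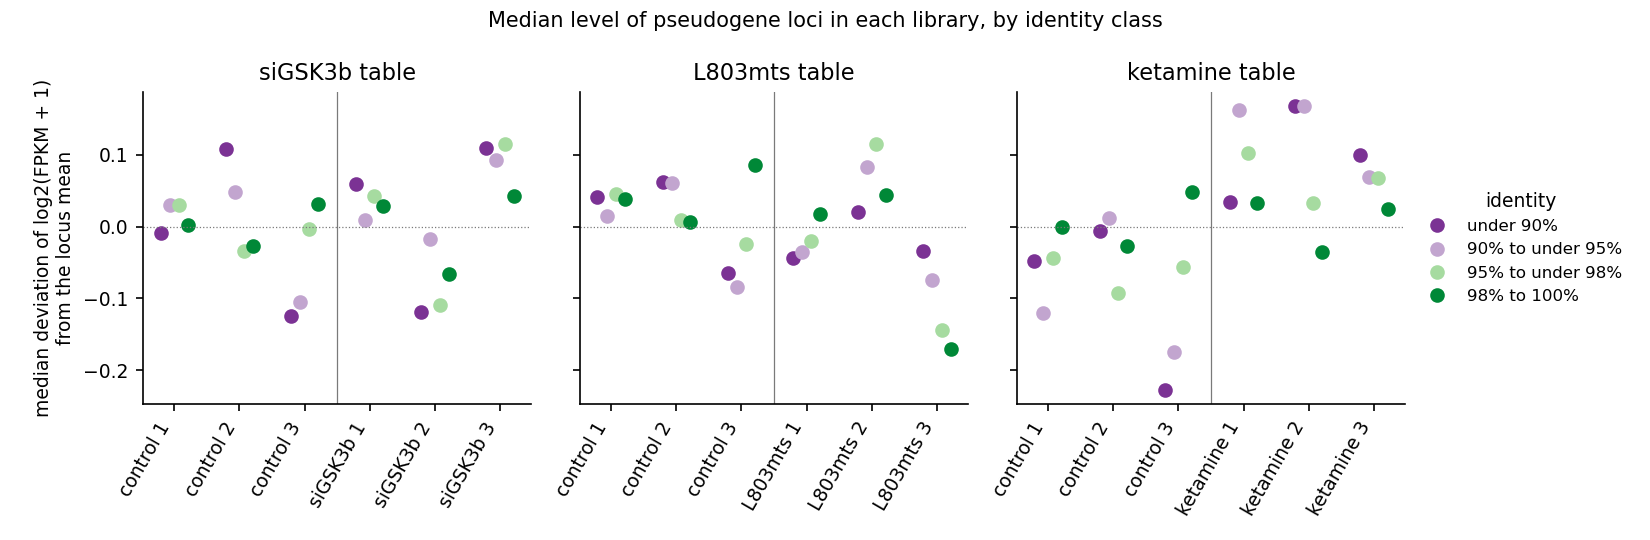
Median deviation of log2(FPKM + 1) from the locus mean in each library, by identity class, in the 3 tables. In the ketamine panel loci of 90% to 95% identity stand at -0.12, 0.01 and -0.17 in control and at 0.16, 0.17 and 0.07 with ketamine, while those of 98% or more stay between -0.04 and 0.05.

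Which table lists a locus also went with the gain. Names found in the ketamine table alone belonged to 82 tested loci, and 27 of them (32.9%) were higher at an unadjusted limma p under 0.05, with a median difference of 0.44, where 9.4% of all loci so named were. Among 60 with a name in 1 other table it was 8, where the share of all such loci was 4.6%. Loci named in 1 table alone in the siGSK3b and L803mts tables were higher in 1 of 39 and 3 of 43 cases. The shares of all loci so named were not computed for those tables, so these counts have no background. The sources used here do not say how rows were chosen for a table, and whether loci were listed because they were high in 1 group was not tested. Restricted to names in all tables, 17 of 69 ketamine loci under 95% identity were higher (24.6%), 10 of 70 between 95% and 98%, and 4 of 164 at 98% or more (2.44%). The limits of such rows can still differ between tables, so this restriction does not settle how a row came to be listed.

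Copies of ribosomal protein genes, the most numerous family, had medians close to those of their coding genes. With ketamine 8 of 65 copies (12.3%) were higher and 2 lower at an unadjusted limma p under 0.05, where 14% of all pseudogene loci and 2.98% of all tested loci were higher. Of 88 coding ribosomal protein genes 6 were higher and 3 lower, and the median was -0.03 for copies and genes alike. With siGSK3b 1 of 53 copies was higher and 4 (7.55%) were lower (median -0.12), beside 0 and 7 (8.05%) of 87 coding genes (median -0.10). The background of that table was 2.99% higher and 2.84% lower, so the lower shares of copies and genes were both above it. With L803mts 2 of 54 copies (3.70%) were higher and 0 lower (median -0.14), beside 0 and 4 (4.55%) of 88 coding genes (median -0.10). The background there was 3.61% higher and 2.57% lower. In every table the medians of copies and genes thus lay within 0.05 of each other. Among copies of glycolysis genes 3 of 6 were higher with ketamine, which are Gm11996 and the Gm13812 and Gm13810 pair with its shared values, and 0 of 5 coding genes were higher or lower. Of 15 copies of respiratory chain genes 3 were higher and 2 lower, beside 2 and 7 of 74 coding genes and a background of 2.98% and 3.16%.

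At 4 of 326 pseudogene loci found once in every table (1.23%) the groups did not overlap in any of them, against 0.605% of all loci so found. These comparisons share their controls, so the values are set side by side and do not support one another. Gm6368 was at 196, 191 and 207 FPKM in control and 215, 277 and 263 FPKM with siGSK3b. Against ketamine its control values were 179, 174 and 188 FPKM, and it stood at 257, 261 and 238 FPKM with ketamine (0.48 ± 0.07; limma, adjusted p = 0.384), where Hsp90ab1 had a difference of -0.01 ± 0.08. Its L803mts values, given above, were the most spread. Gm4204, a copy of the histone chaperone gene Nap1l1 at 99.5% identity, had differences of 0.18, 0.22 and 0.17 on the log2 scale in the siGSK3b, L803mts and ketamine tables, from control values between 129 and 143 FPKM. Gm16433, a copy of the RNA helicase gene Ddx18, had differences of 0.26, 0.31 and 0.27 from control values between 2.39 and 2.57 FPKM. Rpl10a-ps1, a copy of Rpl10a at 100% identity, was below control in each table, with differences of -0.23, -0.27 and -0.29. Its ketamine values were 50.9, 45.2 and 47.4 FPKM against 55.6, 55.3 and 65.6 FPKM in control. None of the 4 passed limma in any table, where the adjusted p lay between 0.384 and 0.895.

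**Figure D5:**
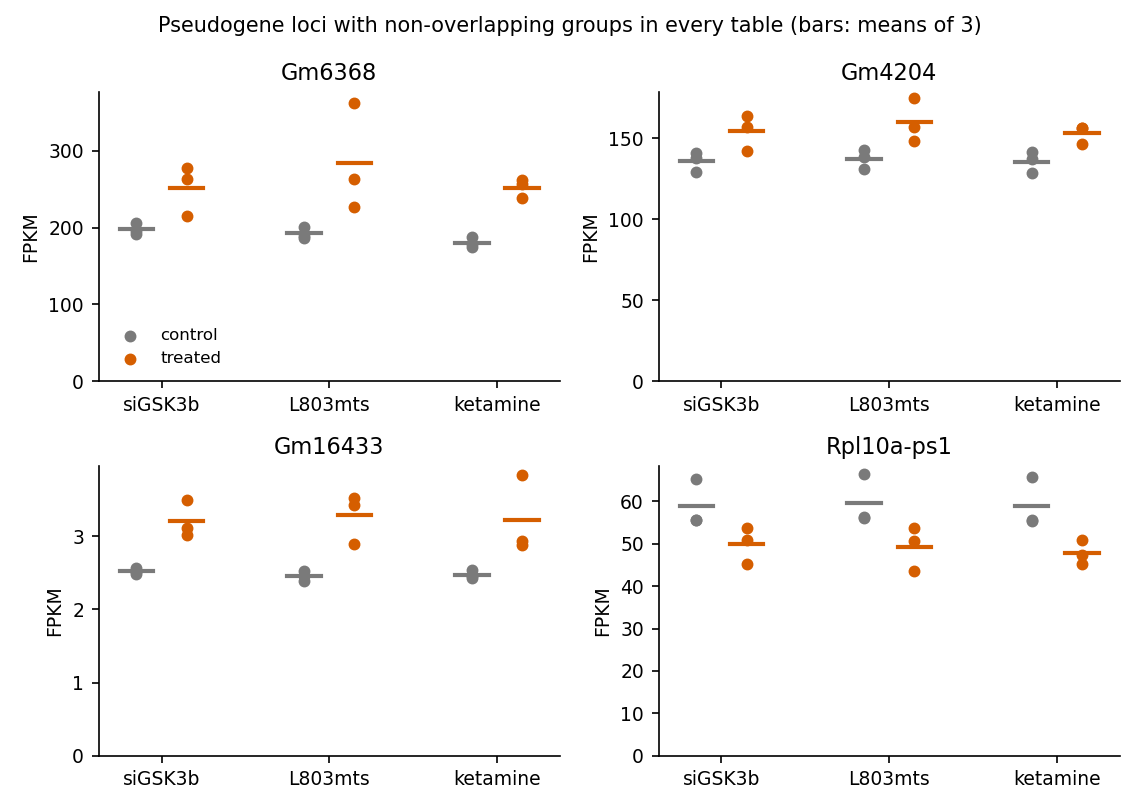
FPKM of the 4 pseudogene loci whose treated and control libraries do not overlap in any table, with 1 point per library and a bar at the mean of 3. Gm6368, Gm4204 and Gm16433 are higher in each treated group and Rpl10a-ps1 is lower, by -0.23 to -0.29 on the log2 scale, against the same 3 control libraries each time.

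A few rows varied widely between libraries of the same group. RP23-445D13.4, on chromosome 3, was at 0, 39.8 and 0 FPKM in control of the siGSK3b table and at 4.17, 0 and 9.05 FPKM with siGSK3b. In the L803mts table the treated libraries were at 16.5, 5.27 and 3.39 FPKM, and in the ketamine table at 6.37, 8.97 and 7.04 FPKM with ketamine, with control replicate 2 the lone non-zero control each time. Gm6863, a copy of Naca, a gene for a factor that binds nascent proteins, that also has an antisense row, was at 175, 80.7 and 6.35 FPKM in control of the siGSK3b table, and in the ketamine table at 33.1 FPKM in control replicate 3 and below 0.01 FPKM in the other controls. Gm16420, a copy of Set in a row of 81 bases, was at 1850, 865 and 0 FPKM in control of the ketamine table and 544, 527 and 667 FPKM with ketamine. Gm11512, a copy of the mitochondrial gene mt-Co1, was at 9.34, 45.2 and 9.45 FPKM with L803mts and 23.5, 40.6 and 15.6 FPKM in control, with replicate 2 the highest of both groups. 4930519F09Rik, a copy of the pyruvate dehydrogenase gene Pdha1, was at 45.3, 138 and 46.4 FPKM with L803mts and 80.7, 134 and 51.8 FPKM in control, again with replicate 2 highest. Its difference on the log2 scale was -0.13 with siGSK3b, -0.31 with L803mts and 1.03 with ketamine, and the authors called it in no table.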

How the data were processed

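Per the file headers, each deposited table gives FPKM per library and, per locus, the authors' p-value, log2 fold change and FDR. The submitters' processing notes list Cufflinks, Cuffdiff and TopHat2 2.0.9, and the builds GRCh37 and NCBIM37. Coordinates reach 152125614 on chromosome 7 and are given as NCBIM37. Each table was normalised separately. Per the labels' protocols the libraries are strand-specific and poly(A)-selected.

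Loci with a deposited p-value below 1 were fitted on log2(FPKM + 1) by limma 3.58.1 under R 4.3.3, with an intensity trend, as 3 treated against 3 control libraries of the same table, and p-values were adjusted by the Benjamini-Hochberg method over all of them. This scale understates the change of low loci. Of the pseudogene loci 3, 1 and 4 had no such p-value, and 429, 441 and 473 averaged at least 1 FPKM. The fit was also run on simulated data with independent normal values at each locus. Those data hold no reads shared between loci and no lone outlying library, so they do not show how the fit behaves with either. An exact permutation test of 3 against 3 cannot give a p below 0.1 and was not run.

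GENCODE vM21 (GRCm38) transcripts were matched by symbol (555 name entries) or RefSeq synonym (30), with 19 unmatched, and aligned to protein-coding transcripts with blastn 2.17.0. The members, lists and rules were chosen with earlier results of these data known. The loci named come from those called by limma or the authors, the 10 highest in control and the 6 widest non-overlapping differences each way. Others come from those apart in every table, the highest of each name class, and rows with a wide gap between the highest library of a group and the next. The text gives all calls and widest differences and a selection of the others, made after their values were seen, as were the identity classes. The labels state no pairing of libraries by replicate number, and the main fit used none.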

Additional observations from a re-analysis of the deposited data

How the results depend on the processing

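No pseudogene locus passed limma in the 3 comparisons, and this held with a pseudocount of 0.1 FPKM, a mean of at least 1 FPKM, no filter, centring on the median and the replicate block. Leaving out 1 library gave 0 to 1 calls with siGSK3b, 0 to 0 with L803mts and 0 to 2 with ketamine, and the cause was not tested. The single siGSK3b call, without control replicate 1, was Sowahc. The ketamine calls were Gm11572 without control replicate 1, and Gm8858 and RP23-445D13.4 without control replicate 2. The authors' Cuffdiff FDR gave 2, 3 and 14 calls. At an unadjusted limma p under 0.05 the counts were 20, 20 and 79 loci and ran from 18 to 35, from 13 to 53 and from 64 to 90 with 1 library left out. The L803mts extremes came without L803mts replicate 3 and without L803mts replicate 2 (21 higher and 32 lower), and the siGSK3b maximum without control replicate 1 (14 higher and 21 lower). Whether replicate numbers pair the libraries is not stated by the labels. Correlations of same-numbered deviations ran from -0.16 to 0.19, and not every library correlated best with its own number, which does not settle it. With the replicate block the counts at an unadjusted p under 0.05 were 15, 31 and 85. Shares of all tested loci with 1 library left out were not computed, so these counts have no background. The share of ketamine loci that were higher ran from 11.9% to 15.9% with 1 library left out. Under restrictions chosen after seeing the data it was 9.50% for names in all tables, against 2.2% of all such loci. At a control mean of at least 5 FPKM it was 11.6%, without overlapping loci 15.1%, and for processed pseudogenes, transcribed ones included, 15.7%. Shares of all tested loci under the level and overlap restrictions were not computed, so these values have no background of their own. Of 704 alternative values for 64 named loci 703 kept their direction, the exception being 2210015D19Rik, which ran from -2.72 to 0.28 with 1 library left out and reached the latter without control replicate 3. Depth is unknown, some short rows differ widely in FPKM between tables, and reads shared with near-identical genes cannot be separated here.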
